A study of Mus musculus with 12 samples.

Results

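The RNAs described here are the 60 most abundant small structured RNAs of the mouse spinal cord libraries. They were taken from the 3525 gene IDs whose biotype in the deposited table is snRNA, snoRNA, scaRNA, misc_RNA or ribozyme. For each of the 12 libraries a gene's count was divided by the library's total count, the 12 shares were averaged, and the 60 genes with the highest mean share were kept. By biotype they are 26 misc_RNA, 24 snoRNA, 6 scaRNA, 2 snRNA and 2 ribozyme genes. Of the 3525 IDs, 868 had a count in any library, and the 60 members held 97.1% of all counts of the 5 biotypes. The ranking rests on the level of each RNA over all 12 libraries, so the levels are given as a description without a test. The last members inside the limit, Gm22982, Gm22710 and Gm26490, had mean shares of 0.287, 0.277 and 0.270 raw CPM (counts-per-million of the library's total count), against 0.270, 0.247 and 0.233 for Gm23883, Gm27861 and Gm22748 just outside it.

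The libraries came from spinal cord of mice at postnatal day 21. All mice carried a bacTRAP transgene, which makes the ribosomal protein Rpl10a fused to EGFP so that tagged ribosomes can be pulled down with the RNA bound to them. In the line Tg(Chat-EGFP/Rpl10a)DW167Htz the fusion is driven by sequences of Chat, the gene of choline acetyltransferase in cholinergic neurons, and in Tg(Snap25-EGFP/Rpl10a)JD362Jdd by those of Snap25, a synaptic gene of neurons in general. The groups of 3 libraries each were the pulldown TRAP_Chat with its input PreIP_Chat, and the pulldown TRAP_Snap25 with its input PreIP_Snap25, where the input is RNA taken before the pulldown. The labels do not say whether replicates were separate animals or pools, so each p-value reflects the spread among these libraries alone, which may be technical. A pulldown from mice without the tag was not analysed here. Total counts ran from 10149346 to 20521699 per library, and a count of 3 stood for 0.146 to 0.296 raw CPM in 1 library, a limit that covers counting error only. Chat itself had 106, 185 and 187 CPM (from here on after TMM scaling, which corrects for differences in library composition) in TRAP_Chat, 30.2, 20.3 and 16.1 CPM in PreIP_Chat, 19.98, 26.1 and 28.9 CPM in TRAP_Snap25, and 19.6, 14.05 and 14.7 CPM in PreIP_Snap25. The TRAP_Chat libraries were thus above every other library for the gene that drives their tag. Snap25 had 16530, 14983 and 15569 CPM in TRAP_Snap25, against 9066, 10576 and 8807 CPM in PreIP_Snap25. In the Chat line it had 6369, 7510 and 10709 CPM in TRAP_Chat and 6096, 5903 and 6902 CPM in PreIP_Chat. Its rise in the Snap25 line missed the threshold of 0.05 (0.73 ± 0.26 on the log2 scale, SE, edgeR adjusted p = 0.0544). All 7 cholinergic motor neuron markers were higher in TRAP_Chat than in PreIP_Chat and 2 of them in TRAP_Snap25 than in PreIP_Snap25, while 1 of 6 general neuron markers was higher in each line. Of all tested genes, 12.6% were higher in TRAP_Chat than in PreIP_Chat and 9.69% in TRAP_Snap25 than in PreIP_Snap25.

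Small structured RNAs mostly do their work in the nucleus or in ribonucleoprotein particles, and they are not messages. 7SK RNA holds the elongation kinase P-TEFb in an inactive particle with HEXIM and LARP7 proteins. The RNAs of RNase P and RNase MRP are the catalytic or structural cores of enzymes that trim precursor tRNAs and cut precursor ribosomal RNA. 7SL RNA is the scaffold of the signal recognition particle, which binds ribosomes making secreted and membrane proteins. Y RNAs bind the Ro60 protein. U1 recognises 5′ splice sites, U3 acts in early cutting of precursor ribosomal RNA, and other small nucleolar RNAs guide 2′-O-methylation (box C/D) or pseudouridylation (box H/ACA) of ribosomal RNA. The small Cajal body RNAs do the same for spliceosomal RNAs.

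The following transcripts, read 5′ to 3′ from GENCODE M21 on GRCm38, carry the results below, and of Rn7sk and Rpph1 the first 300 bases are shown. The first 4 are named RNAs of separate families that fell in at least 1 line, and the capitals in Rn7sk mark GATC.
Rn7sk: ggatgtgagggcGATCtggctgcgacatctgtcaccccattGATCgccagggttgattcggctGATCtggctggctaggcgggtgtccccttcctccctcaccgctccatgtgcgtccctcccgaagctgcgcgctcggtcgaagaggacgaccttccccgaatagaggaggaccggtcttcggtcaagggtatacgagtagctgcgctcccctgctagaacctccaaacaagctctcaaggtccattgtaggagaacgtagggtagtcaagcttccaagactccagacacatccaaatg
Rpph1: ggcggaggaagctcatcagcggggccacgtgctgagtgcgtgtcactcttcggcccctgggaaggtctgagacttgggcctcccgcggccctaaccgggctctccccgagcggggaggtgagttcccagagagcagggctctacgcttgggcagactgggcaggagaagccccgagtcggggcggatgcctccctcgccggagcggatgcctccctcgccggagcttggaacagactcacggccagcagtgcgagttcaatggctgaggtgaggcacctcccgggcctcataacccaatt
Rmrp: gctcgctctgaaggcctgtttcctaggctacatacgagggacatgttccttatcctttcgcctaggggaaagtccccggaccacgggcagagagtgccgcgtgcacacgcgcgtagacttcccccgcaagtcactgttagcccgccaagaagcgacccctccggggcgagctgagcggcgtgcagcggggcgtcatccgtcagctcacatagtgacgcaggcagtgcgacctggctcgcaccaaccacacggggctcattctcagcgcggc
Rny3: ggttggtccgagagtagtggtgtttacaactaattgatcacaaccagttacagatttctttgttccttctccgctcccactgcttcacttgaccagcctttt
The next 3 are shown because they were not called, or were high in single libraries. In Snord104 and Scarna9 the capitals mark TGATG near the start and CTGA near the end, the box C and box D letters searched for, and in Gm24151 they mark an ACA 3 bases before the end.
Snord104: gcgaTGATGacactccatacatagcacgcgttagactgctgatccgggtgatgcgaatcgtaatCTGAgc
Scarna9: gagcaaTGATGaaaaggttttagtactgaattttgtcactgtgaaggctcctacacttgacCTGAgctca
Gm24151: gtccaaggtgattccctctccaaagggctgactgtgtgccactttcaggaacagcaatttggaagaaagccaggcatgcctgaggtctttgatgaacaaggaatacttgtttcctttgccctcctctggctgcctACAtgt
In human 7SK, GAUC repeats in the 5′ hairpin belong to the HEXIM binding region. The first 100 bases of mouse Rn7sk held 3 GATC. At least this number was found in 27 of the 2810 GENCODE M21 transcripts of the 5 biotypes that are at least this long (0.961%). The 27 include Rn7sk itself and 8 members that are copies of it. Box C/D letters (TGATG starting within the first 15 bases and CTGA within the last 12, on the transcript strand) were found in 8 of the 30 snoRNA and scaRNA members, against 21.7% of all 1558 such transcripts. An ACA 3 bases before the end was found in 12 of the 30, against 19.3% of all.

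By annotation the 60 genes fall into a few families. Rn7sk, on chromosome 9, has 13 members that align to it over at least 60% of their length with at least 70% identity, and 8 of these 13 copies also hold 3 or more GATC while none holds 0. The 7SL gene Rn7s1, on chromosome 12, has 5 such copies and a partner, Rn7s2, that is 100% identical to it. Gm26244 is 99.4% identical to the U1 gene Rnu1a1. A stretch of 50 bases is shared with another gene in 29 of the 60 members. Counts of Rn7sk and its copies, Rpph1, Rmrp, Rn7s1, Rn7s2 and the U1 or U3 genes therefore cannot be assigned to 1 locus with certainty. Shared windows of 50 bases made up 68.1% of those of Rpph1 and 100% of those of Rmrp. GENCODE M21 has 2 IDs named Rmrp, and the deposited table has 1. Members were 69 to 414 bases long, 29 of them shorter than 200 bases. Across the 60 members, length and mean share had a Spearman rho of 0.195, a description across genes that share the same libraries. A total of 26 members lie inside a longer gene on the same strand, 22 of them in an intron and 4 over an exon.

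Very few RNAs made up most of the class. Rn7sk held 67.1% of all counts of the 60 members, Rpph1 (the RNase P RNA) 18.3%, the Rn7sk copy Gm23624 3.28%, Rmrp (the RNase MRP RNA) 1.52% and Rn7s1 1.18%. Per length the order of the mean levels over all 12 libraries was similar, with 1667 CPM per kb for Rn7sk, 465 for Rpph1, 84.3 for Gm23624 and 45.8 for Rmrp. Next came Gm26397, an H/ACA-ended snoRNA in an intron of Tomm20, with 44.3 CPM per kb, of which most came from 1 library described below.

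Some libraries stood apart. TRAP_Chat replicate 1 held more of some input-rich RNAs than the other pulldowns. The mitochondrial ribosomal RNAs summed to 21.7% of the mean input level there, against 0.444% to 1.47% in the other 5 pulldowns. This did not hold for all: the microglia markers stood at 14.7% there, against 16.4% and 18.2% in TRAP_Chat replicates 2 and 3. PreIP_Snap25 replicate 3 held more snoRNA and scaRNA than the other inputs. For the results these libraries moved most, values without them are given beside the result.

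Pulled-down RNA held a smaller share of these RNAs than input RNA in every library of both lines. Together the 60 members took 531, 106 and 116 raw CPM in TRAP_Chat, against 1581, 1029 and 680 raw CPM in PreIP_Chat. In the Snap25 line they took 314, 179 and 206 raw CPM in TRAP_Snap25, against 1348, 1218 and 1684 raw CPM in PreIP_Snap25. Every pulldown library was thus below every input library of its line, and TRAP_Chat replicate 1 was nearest to its inputs. On the log2 scale the mean difference was -2.47 (5.54-fold lower in TRAP_Chat) and -2.63 (6.20-fold lower in TRAP_Snap25). With 1 library left out the Chat line ran from -3.22 (without TRAP_Chat replicate 1) to -2.06, and the Snap25 line from -2.87 to -2.46. Leaving out Rn7sk and Rpph1, the other 58 members had differences of -2.12 and -1.97 on the log2 scale. These shares are the values that chose the members, so the differences are a description with no test. Pulldown and input differ in whether the RNA is bound to tagged ribosomes and in the cells that the RNA comes from. The part of each in these differences was not tested. In bulk RNA, fewer cells of a type and less RNA per cell also cannot be told apart.

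Gene by gene, 51 of the 60 members had enough counts to be tested with edgeR's quasi-likelihood test, with Benjamini-Hochberg adjustment over all 15905 tested genes and a threshold of 0.05. The 9 not tested were Gm24620, Gm24119, Gm24151, Gm24357, Scarna17, Rny1, Gm22982, Gm22710 and Gm26490. Of the 51, 18 reached the filter's minimum of 0.585 raw CPM in at least 3 of the 6 TRAP libraries. In at least 3 of the 6 PreIP libraries 47 did so, and 30 did so in PreIP only. Most members therefore entered the test through the inputs, where they are high, and the counts that follow describe the tested members and do not stand as support. TRAP_Chat was lower than PreIP_Chat in 20 of the 51, while 14.3% of all tested genes were called lower. None of the 51 was called higher, while 12.6% of all genes were; at an unadjusted p under 0.05, and by DESeq2 or limma voom, the number higher was also 0. TRAP_Snap25 was lower than PreIP_Snap25 in 25 of the 51 (12.7% of all genes) and higher in none (9.69% of all genes, and also 0 members at an unadjusted p under 0.05 and by the other tools). Without PreIP_Chat replicate 1 the number lower in the Chat line was 11 and without TRAP_Chat replicate 3 it was 13, and in the Snap25 line it was 14 without PreIP_Snap25 replicate 3 and 15 without TRAP_Snap25 replicate 2. A fit with a replicate block called 20 members lower in the Chat line and 17 in the Snap25 line. The 16 members called lower in both lines were 80% of the calls in the Chat line and 64% of those in the Snap25 line. The median log2 fold change of the tested members was -2.49 in the Chat line and -2.75 in the Snap25 line, against -0.06 and -0.00 over all genes. With members that had no pulldown count set to their lower bounds the medians were -2.41 and -2.75. All pulldown libraries lay below all inputs for 35 of the 51 members in each line, against 26.1% of all genes in the Chat line and 21.4% in the Snap25 line. All pulldown libraries lay above all inputs for 0 of the 51 in each line, against 21.8% and 16.6% of all genes.

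**Figure D1:**
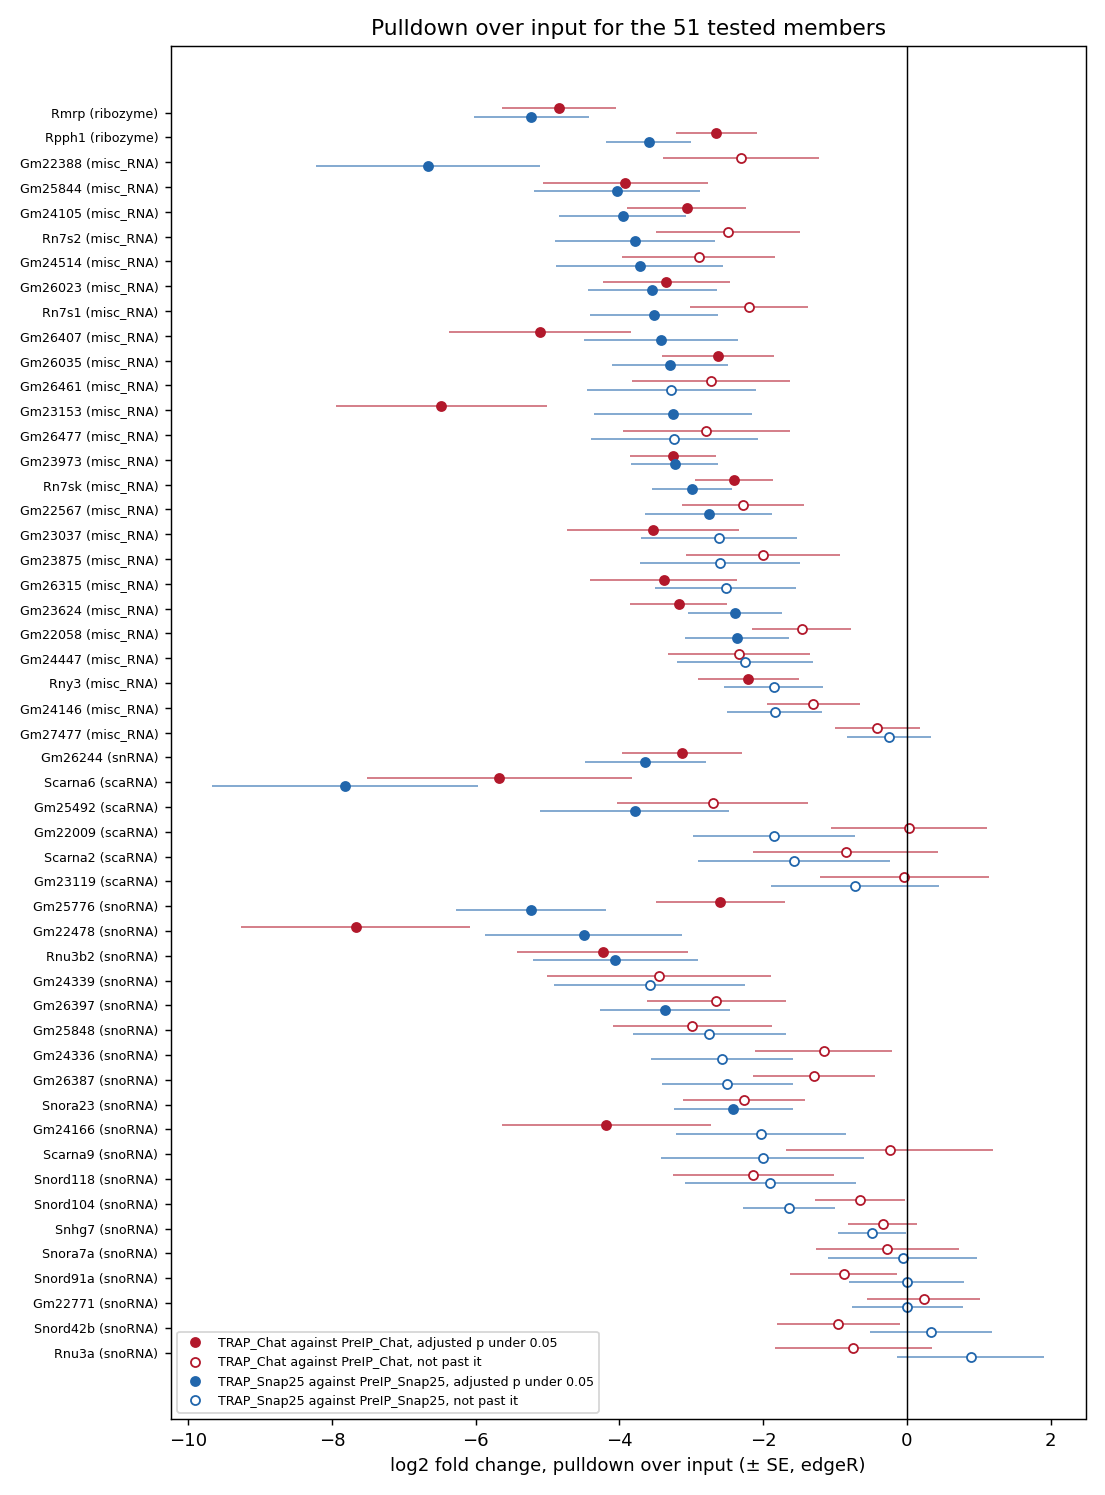
Log2 fold change of TRAP over PreIP, with its standard error from the edgeR fit, for the 51 tested members in the Chat line and in the Snap25 line (3 libraries per group). Filled points have an adjusted p under 0.05: 20 members in the Chat line and 25 in the Snap25 line, and each of these lies below 0.

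7SK RNA was the most abundant member in every group. Rn7sk had 319.5, 63.9 and 60.9 CPM in TRAP_Chat, against 1230.3, 713 and 419 CPM in PreIP_Chat. It had 196, 92.2 and 139 CPM in TRAP_Snap25, against 1060.1, 1136 and 1192 CPM in PreIP_Snap25. No pulldown library reached the lowest input of its line, and TRAP_Chat replicate 1 was the highest of the 6 pulldowns. Rn7sk was 5.32-fold lower in TRAP_Chat (-2.41 ± 0.54 on the log2 scale, SE, edgeR adjusted p = 0.00422) and 7.93-fold lower in TRAP_Snap25 (-2.99 ± 0.56, edgeR adjusted p = 0.0017). Without TRAP_Chat replicate 1 the value in the Chat line was -3.66 (edgeR adjusted p = 6.92e-05).

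Of the 13 Rn7sk copies, 12 were tested. In the Chat line 7 of them were lower in the pulldown and in the Snap25 line 6, with medians of -2.98 and -2.61 on the log2 scale. Of all tested genes, 14.3% and 12.7% were called lower. The identities to Rn7sk given here hold over the aligned part, which is 75.4% of Gm23624, 73.2% of Gm23973 and 73.8% of Gm24146. The most abundant copy, Gm23624 (90.2% identical to Rn7sk), had 7.97, 4.31 and 6.25 CPM in TRAP_Chat, against 90.5, 50.2 and 27.3 CPM in PreIP_Chat. In the other line it had 8.96, 1.06 and 12.4 CPM in TRAP_Snap25, against 26.5, 19.1 and 69.996 CPM in PreIP_Snap25. Its pulldown libraries did not overlap its inputs. The log2 fold change was -3.18 ± 0.67 in the Chat line (edgeR adjusted p = 0.00285) and -2.39 ± 0.66 in the Snap25 line (edgeR adjusted p = 0.016), and without PreIP_Snap25 replicate 3 the value in the Snap25 line was -1.64 (edgeR adjusted p = 0.0946). Gm23973 (96.2% identical) fell in both lines, by 3.25 and 3.23 on the log2 scale (edgeR adjusted p = 0.00109 and 0.0017), with -4.11 in the Chat line without TRAP_Chat replicate 1. Gm24146 (97.5% identical) was not called, with -1.30 in the Chat line and -1.84 in the Snap25 line (edgeR adjusted p = 0.145 and 0.0549). Of Rn7sk's own 282 windows of 50 bases, 68.1% also occur in other genes.

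The RNase P and RNase MRP RNAs, the ribozyme members, fell in both lines. Rpph1 had 90.5, 18.7 and 15.6 CPM in TRAP_Chat, against 391, 271 and 123 CPM in PreIP_Chat. It had 19.2, 22.5 and 25.0 CPM in TRAP_Snap25, against 283, 157 and 362 CPM in PreIP_Snap25. The 3 TRAP_Snap25 libraries lay close together, whereas in TRAP_Chat replicate 1 stood well above the others, and no pulldown reached its inputs. Rpph1 was 6.29-fold lower in TRAP_Chat (-2.65 ± 0.56 on the log2 scale, edgeR adjusted p = 0.00295) and 12.03-fold lower in TRAP_Snap25 (-3.59 ± 0.59, edgeR adjusted p = 0.000774). Without TRAP_Chat replicate 1 the value in the Chat line was -3.94 (edgeR adjusted p = 6.93e-05). Rpph1 overlaps an exon of Ccnb1ip1 on the same strand, a gene with a mean of 0 CPM in every group.

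Rmrp was at low counts in every pulldown. It had 1.30, 0.378 and 0.156 CPM in TRAP_Chat, from 21, 5 and 3 counts, against 24.9, 21.5 and 6.19 CPM in PreIP_Chat. It had 0.882, 0.279 and 1.42 CPM in TRAP_Snap25, from 12, 5 and 14 counts, against 29.7, 9.78 and 52.3 CPM in PreIP_Snap25. Even the highest pulldown library lay far below the lowest input of its line. Rmrp was 28.6-fold lower in TRAP_Chat (-4.84 ± 0.79, edgeR adjusted p = 0.00049) and 37.4-fold lower in TRAP_Snap25 (-5.23 ± 0.80, edgeR adjusted p = 0.000468). Without TRAP_Chat replicate 1 the value in the Chat line was -6.08 (edgeR adjusted p = 0.000484), and without PreIP_Snap25 replicate 3 that in the Snap25 line was -4.59 (edgeR adjusted p = 0.00216). Ccdc107, a gene that overlaps Rmrp on the opposite strand, went the other way, with log2 fold changes of 1.15 ± 0.31 and 1.40 ± 0.31 (edgeR adjusted p = 0.0111 and 0.00464). The strand setting of the counting is not given in the sources used here, and reads of the overlap cannot be assigned with certainty.

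**Figure D2:**
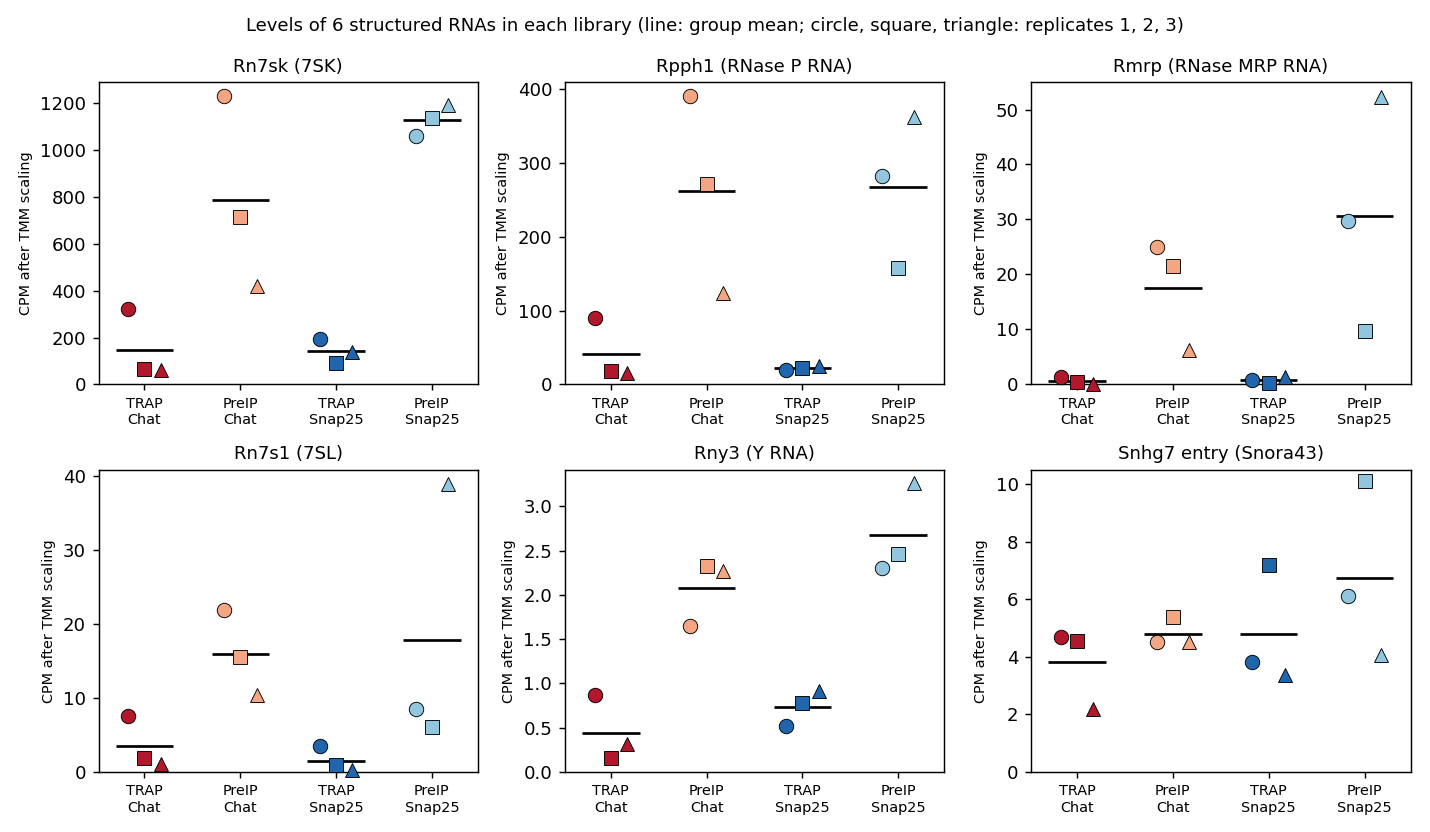
CPM after TMM scaling, on linear axes from 0, of Rn7sk, Rpph1, Rmrp, Rn7s1, Rny3 and the entry named Snhg7 in each library of TRAP_Chat, PreIP_Chat, TRAP_Snap25 and PreIP_Snap25. Circles, squares and triangles are replicates 1, 2 and 3 and lines are group means; Rmrp lies at 0.156 to 1.42 CPM in the 6 pulldowns and at 6.19 to 52.3 CPM in the 6 inputs, while the pulldowns and inputs of Snhg7 overlap.

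7SL RNA passed the threshold in the Snap25 line, and the test of the difference between the lines did not pass. Rn7s1 had 7.60, 1.81 and 1.04 CPM in TRAP_Chat, against 21.9, 15.6 and 10.4 CPM in PreIP_Chat. It had 3.45, 0.893 and 0.203 CPM in TRAP_Snap25, against 8.46, 6.02 and 39.0 CPM in PreIP_Snap25. The pulldowns were below the inputs in each line, although by little for the nearest pair of libraries. The log2 fold change was -2.19 ± 0.82 in the Chat line, which missed the threshold (edgeR adjusted p = 0.058), and -3.52 ± 0.89 in the Snap25 line (edgeR adjusted p = 0.0102). The difference between the lines was 1.33 ± 1.15 (edgeR adjusted p = 0.75). Without PreIP_Snap25 replicate 3, in which Rn7s1 was highest, the Snap25 value was -2.24 and no longer called (edgeR adjusted p = 0.0775), and without TRAP_Chat replicate 1 the Chat value was -3.50 and called (edgeR adjusted p = 0.0127). Rn7s2 had -2.49 and -3.78 (edgeR adjusted p = 0.075 and 0.0229), and its call in the Snap25 line was lost without any 1 of 4 libraries (up to 0.0822, without PreIP_Snap25 replicate 3). Of the 5 other 7SL copies, 2 were lower in the Chat line and 4 in the Snap25 line (14.3% and 12.7% of all genes). Gm23153, a copy with 0 counts in TRAP_Chat against 36 in PreIP_Chat, was called lower there (edgeR adjusted p = 0.0054). Its share was at least 9.19-fold lower against a floor of 3 counts over the pulldown group, with the input count taken as exact.

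The U1-like gene Gm26244 had 1.17, 0.151 and 0.0521 CPM in TRAP_Chat, against 6.35, 4.37 and 1.48 CPM in PreIP_Chat. It had 0.588, 0.781 and 0.407 CPM in TRAP_Snap25, against 4.73, 7.32 and 10.8 CPM in PreIP_Snap25. No library of a pulldown overlapped an input, though replicate 1 of TRAP_Chat came near the lowest PreIP_Chat library. The log2 fold change was -3.13 ± 0.83 in the Chat line (edgeR adjusted p = 0.0114, and 0.0507 without PreIP_Chat replicate 1) and -3.64 ± 0.84 in the Snap25 line (edgeR adjusted p = 0.00621). Without TRAP_Chat replicate 1 the value in the Chat line was -5.31. Of the U3 genes, Rnu3b2 was lower in both pulldowns and Rnu3a was not called in either line. Rnu3b2 had 2 counts in all TRAP_Chat libraries together and 3 in TRAP_Snap25, so that its share was 18.4-fold lower (95% exact counting interval 4.82 to 156) and 14.9-fold lower (4.89 to 74.0), each called (edgeR adjusted p = 0.0151 and 0.0187). These and later counting intervals pool the libraries of a group and leave out the spread among them. Rnu3a had log2 fold changes of -0.74 and 0.89 (edgeR adjusted p = 0.652 and 0.577). The other snRNA member, Gm22710, was not tested.

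Y RNAs were scarce. Rny3 had 0.865, 0.151 and 0.312 CPM in TRAP_Chat, against 1.65, 2.33 and 2.27 CPM in PreIP_Chat. It had 0.514, 0.781 and 0.915 CPM in TRAP_Snap25, against 2.31, 2.46 and 3.26 CPM in PreIP_Snap25. All pulldown libraries were below all inputs, yet only the Chat line passed the threshold, with -2.20 ± 0.70 (edgeR adjusted p = 0.0283) against -1.86 ± 0.69 in the Snap25 line (edgeR adjusted p = 0.0624). The difference between the lines was -0.35 ± 0.95 (edgeR adjusted p = 0.947). The call in the Chat line was lost under 6 of 21 other settings, and the value was -3.09 without TRAP_Chat replicate 1. Rny1 lay below the filter, with 0.309, 1.13 and 0.156 CPM in TRAP_Chat, 0.366, 0.277 and 0.212 CPM in PreIP_Chat, 0, 0.447 and 0.203 CPM in TRAP_Snap25, and 0, 0.259 and 0.196 CPM in PreIP_Snap25, so that its pulldowns and inputs overlapped.

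Fewer of the small nucleolar and small Cajal body RNAs were called. The numbers by class stand against 14.3% of all genes called lower in the Chat line and 12.7% in the Snap25 line. Whether a class exceeds these shares was not tested. Of 19 tested snoRNA members 4 were lower in the Chat line and 5 in the Snap25 line, with medians of -1.29 and -2.03 on the log2 scale. Of 5 tested scaRNA members 1 and 2 were lower, with medians of -0.85 and -1.85. For the 24 tested misc_RNA members the numbers were 12 and 15, with medians of -2.68 and -3.23. These medians describe members of different depth, and the difference between the classes was not tested. The largest falls among snoRNA and scaRNA members came from RNAs with almost no pulldown counts. Scarna6, in an intron of Atg16l1, had 0 counts in all 6 pulldown libraries, against 20 counts in PreIP_Chat and 84 in PreIP_Snap25, and was at least 5.11-fold and at least 17.9-fold lower against a floor of 3 counts over each pulldown group (edgeR adjusted p = 0.0378 and 0.0102). These and the other bounds for RNAs at 0 counts cover counting error of the pulldown only. They take the input count as exact and leave out the spread among libraries. For Scarna6, replicates 1, 2 and 3 held 13, 6 and 1 counts in PreIP_Chat and 22, 5 and 57 in PreIP_Snap25. Without PreIP_Snap25 replicate 3 the call in the Snap25 line remained (edgeR adjusted p = 0.0412). Gm22478 had 0 counts in TRAP_Chat, against 83 in PreIP_Chat, and was at least 21.2-fold lower (edgeR adjusted p = 0.00318). In TRAP_Snap25 it had 1 count, against 3, 26 and 5 counts in PreIP_Snap25, a share 21.7-fold lower (95% exact counting interval 3.64 to 882). Gm25776, in an intron of Gtf2a1, fell by 2.60 ± 0.90 and 5.23 ± 1.04 on the log2 scale (edgeR adjusted p = 0.0417 and 0.00259). Its value was -3.88 in the Chat line without TRAP_Chat replicate 1 and -3.97 in the Snap25 line without PreIP_Snap25 replicate 3. Several of these calls rest on few counts and were lost when 1 library was left out. For Scarna6 in the Chat line this held for 6 of the 12 libraries (edgeR adjusted p up to 0.123, without PreIP_Chat replicate 1), and for Gm25776 in the Chat line also for 6 (up to 0.112, without TRAP_Chat replicate 3). For Gm22478 in the Snap25 line it held for 5 libraries (up to 0.205, without PreIP_Snap25 replicate 2). For Rnu3b2 it held for 3 libraries in the Chat line (up to 0.0595, without PreIP_Chat replicate 1) and 4 in the Snap25 line (up to 0.0664, without TRAP_Snap25 replicate 2). The misc_RNA member Gm22388 had 0 counts in TRAP_Snap25, against 39 in PreIP_Snap25, and was at least 8.30-fold lower (edgeR adjusted p = 0.00785).

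Other members of this kind were not called in either line. The entry that the table names Snhg7 is Snora43 in GENCODE M21, an H/ACA snoRNA. It had 4.70, 4.53 and 2.19 CPM in TRAP_Chat, against 4.52, 5.37 and 4.50 CPM in PreIP_Chat, and 3.82, 7.20 and 3.36 CPM in TRAP_Snap25, against 6.10, 10.1 and 4.04 CPM in PreIP_Snap25. Its groups overlapped, and the log2 fold changes were -0.34 ± 0.48 and -0.48 ± 0.48 (edgeR adjusted p = 0.637 and 0.501). The box C/D RNA Snord104 had -0.65 ± 0.63 and -1.64 ± 0.64 (edgeR adjusted p = 0.471 and 0.0743). Snord42b, over an exon of the ribosomal protein gene Rpl23a, had -0.95 and 0.34 (edgeR adjusted p = 0.435 and 0.814), Snora7a, over an exon of Rpl32, -0.27 and -0.06 (edgeR adjusted p = 0.865 and 0.977), and Snord91a, in an intron of Tsr1, -0.88 and -0.00 (edgeR adjusted p = 0.406 and 0.998). The U8 RNA Snord118, which acts in maturation of the large ribosomal subunit's RNA, had -2.13 and -1.90 (edgeR adjusted p = 0.171 and 0.27). A p above the threshold does not show that these RNAs were unchanged.

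A few of these RNAs were high in single libraries. PreIP_Snap25 replicate 3 held 145 CPM of snoRNA and scaRNA members in sum, against 29.7 to 40.6 CPM in the other 5 inputs. In that library 12 of the 30 snoRNA and scaRNA members were more than 3-fold above the mean of the other PreIP_Snap25 libraries, 11 of them also above every other input, against 3 of the 30 remaining members and 0.956% of all tested genes. The ranking that chose the members includes this library, so RNAs high in it could enter through it. Some of the 30 were also too low to be tested, and these numbers are a description. Of these 12, 10 lie inside a host gene, 5 end in ACA and 4 hold the box C/D letters, against 19, 12 and 8 of all 30, and no difference in these traits was tested. Gm26397 was the extreme, with 51.7 CPM there, against 3.52 and 1.88 CPM in replicates 1 and 2. Its log2 fold change in the Snap25 line was -3.36 ± 0.90 (edgeR adjusted p = 0.0142) and -0.55 without that library (edgeR adjusted p = 0.626). Snora23, an H/ACA snoRNA in an intron of Ipo7, had -2.41 ± 0.82 (edgeR adjusted p = 0.0442) and -1.89 without it (edgeR adjusted p = 0.176), and its call was lost without any 1 of 8 libraries. In the pulldowns, TRAP_Chat replicate 1 and TRAP_Snap25 replicate 3 held 35 and 23 counts of Gm24151, against 0 to 2 counts in every other library. The same libraries held 20 and 23 counts of Scarna9, and 64 and 30 of Scarna2, above the other pulldowns. Inputs reached more, with 136 counts of Scarna9 and 88 of Scarna2 in PreIP_Snap25 replicate 3. Scarna2, with 3.96, 0.302 and 0.0521 CPM in TRAP_Chat against 2.26, 4.60 and 0.952 CPM in PreIP_Chat, was not called. What sets these libraries apart was not tested.

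**Figure D3:**
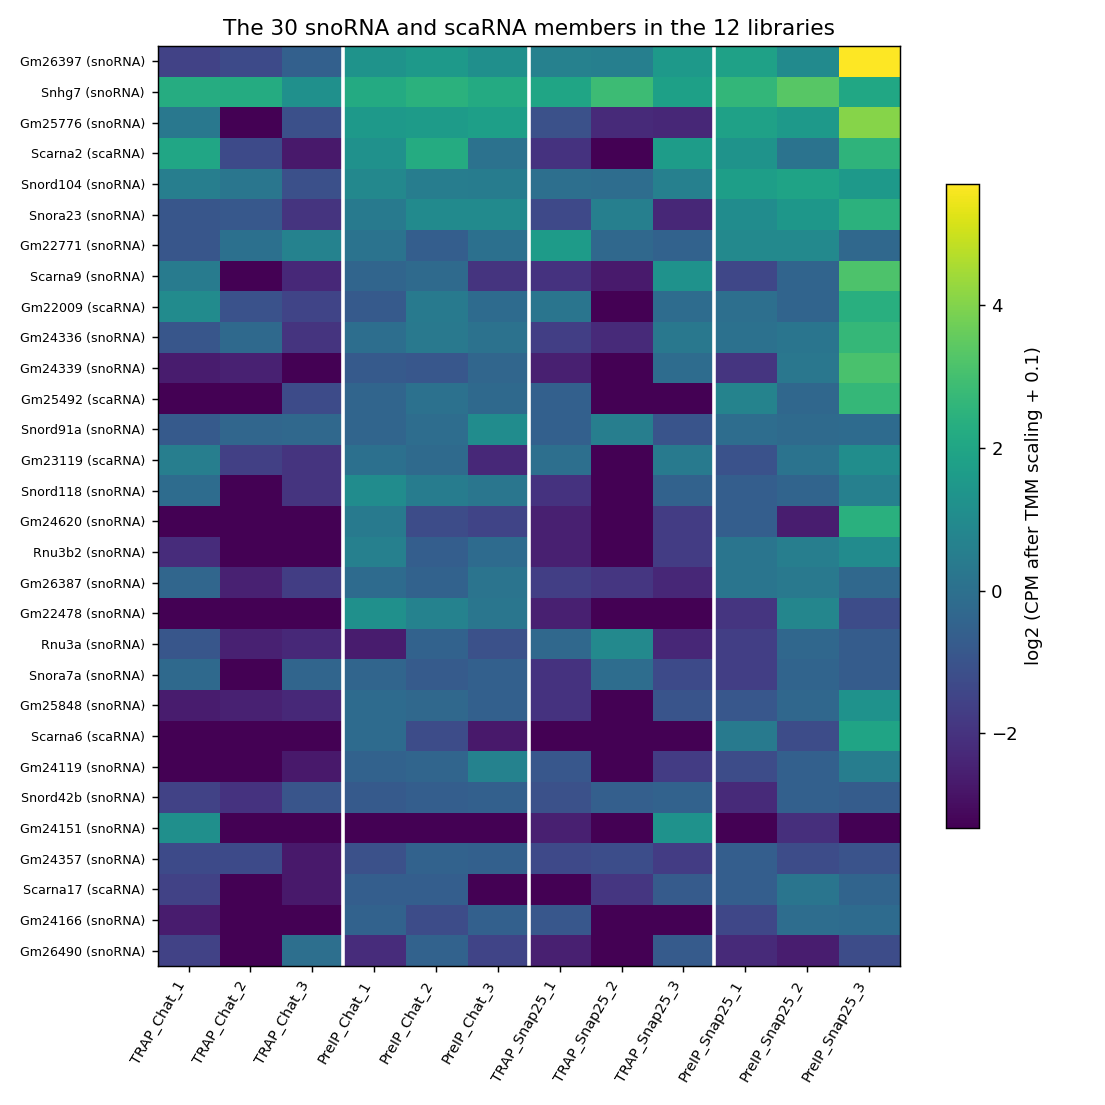
Level of the 30 snoRNA and scaRNA members in the 12 libraries, as log2(CPM + 0.1), with libraries in columns by group and members in rows. PreIP_Snap25 replicate 3 holds more of many of these RNAs than the other inputs, 145 CPM in sum against 29.7 to 40.6 CPM.

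Members inside longer genes had lower fold changes than their hosts. For 22 tested member and host pairs, with 20 different hosts, the host's log2 fold change was above that of the member in 22 of 22 pairs in the Chat line and in 22 of 22 in the Snap25 line. The median over the pairs was 0.24 for hosts and -2.62 for members in the Chat line, and 0.29 and -2.59 in the Snap25 line. Tomm20, the mitochondrial import receptor gene that holds Gm26397, had -0.02 and 0.58. Impact, which holds the misc_RNA member Gm26407, had -0.50 in the Chat line (edgeR adjusted p = 0.1) and rose by 0.78 in the Snap25 line (edgeR adjusted p = 0.0183), whereas Gm26407 fell in both lines (edgeR adjusted p = 0.00769 and 0.0303). Its call was lost without PreIP_Chat replicate 3 in the Chat line (edgeR adjusted p = 0.0523) and without any 1 of 4 libraries in the Snap25 line (up to 0.187, without PreIP_Snap25 replicate 2). With 1 count in TRAP_Chat, the share of Gm26407 was 39.8-fold lower there (95% exact counting interval 6.84 to 1604). Its PreIP_Chat libraries held 6, 9 and 37 counts, a spread that the interval leaves out. Of the 20 hosts, 3 were called lower and 0 higher in the Chat line (14.3% and 12.6% of all genes), and 2 lower and 2 higher in the Snap25 line (12.7% and 9.69% of all genes). Members were chosen on their level over the libraries and mostly passed the filter through the inputs, so this order of hosts and members is a description.

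**Figure D4:**
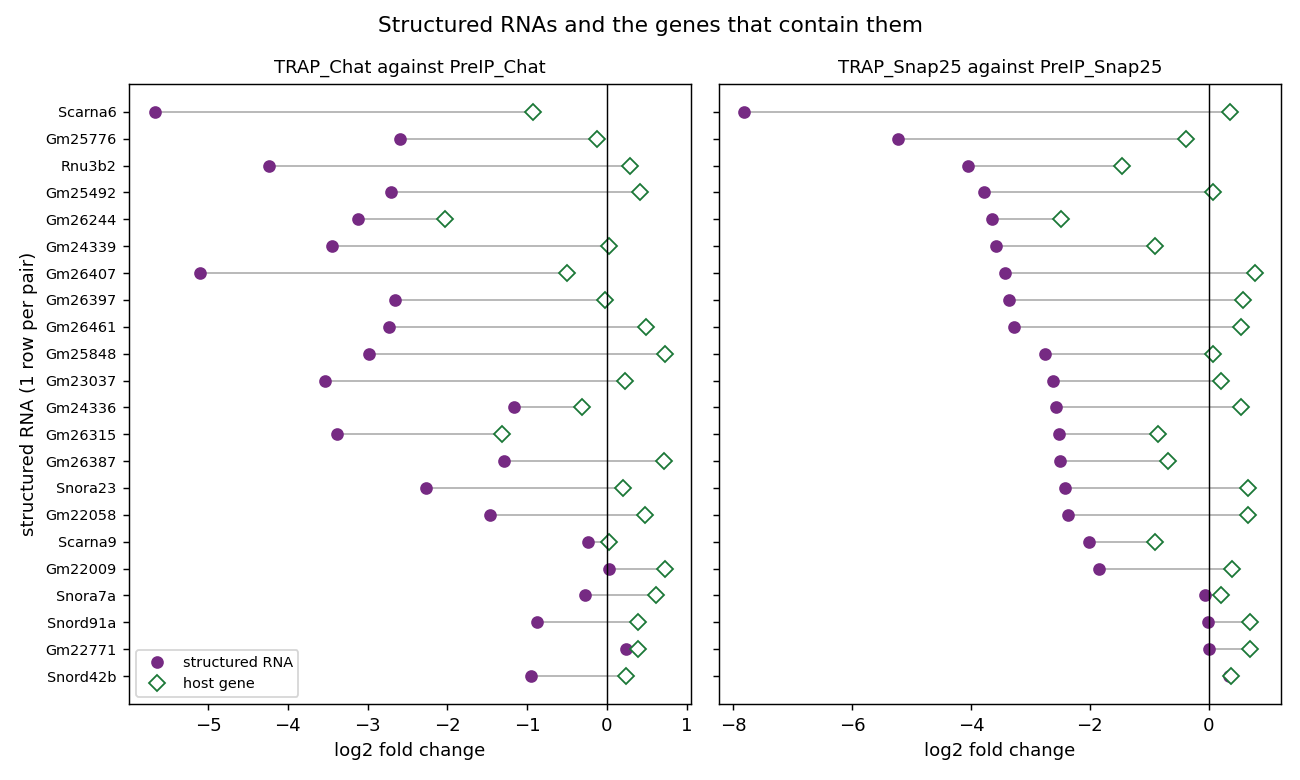
Log2 fold change of TRAP over PreIP for 22 members (filled circles) and the longer genes that contain them (open diamonds), 1 row per pair joined by a line, in the Chat line and in the Snap25 line. In each of the 22 pairs the host lies right of its member, with host medians of 0.24 and 0.29.

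The messages of the proteins that bind these RNAs were called in both directions, and their numbers stand against 12.6% of all genes higher and 14.3% lower in the Chat line and 9.69% higher and 12.7% lower in the Snap25 line. Of 11 tested genes for RNase P and RNase MRP proteins, 4 were higher in TRAP_Chat and 5 in TRAP_Snap25, and none was lower. Pop5, a subunit of both enzymes, rose by 2.06 ± 0.33 and 1.67 ± 0.33 on the log2 scale (edgeR adjusted p = 0.000401 and 0.00224). Rpp25, also a shared subunit, had 29.2, 32.0 and 21.8 CPM in TRAP_Chat, against 27.0, 22.8 and 24.2 CPM in PreIP_Chat, and 86.2, 165 and 89.7 CPM in TRAP_Snap25, against 25.6, 26.5 and 30.2 CPM in PreIP_Snap25. Only the TRAP_Snap25 libraries were high. The log2 fold change was 0.16 ± 0.27 in the Chat line (edgeR adjusted p = 0.686) and 2.05 ± 0.28 in the Snap25 line (edgeR adjusted p = 0.000201), and the lines differed by -1.89 ± 0.38 (edgeR adjusted p = 0.0205). Among 7 genes of the 7SK particle, Ccnt2, a cyclin of P-TEFb, fell by 0.99 in the Chat line (edgeR adjusted p = 0.0329), and Hexim2, an inhibitor of P-TEFb, rose by 1.18 in the Snap25 line (edgeR adjusted p = 0.0249). Of 6 signal recognition particle genes, 3 were higher in the Chat line and 2 in the Snap25 line, among them Srp19 with 1.43 and 1.10 (edgeR adjusted p = 0.00205 and 0.0117). Of 6 genes for H/ACA particle proteins, 2 and 1 were higher, with Nop10 at 1.87 and 1.63 (edgeR adjusted p = 0.000153 and 0.000658). No gene was called among 4 for box C/D particle proteins, 6 for Cajal body proteins and 2 for Y RNA binding proteins. Of 31 spliceosomal particle genes, 6 were higher and 2 lower in the Chat line, and 4 higher and 2 lower in the Snap25 line. Of 12 noncoding genes known as snoRNA hosts, 1 was higher and 2 lower in the Chat line, and 0 higher and 4 lower in the Snap25 line. Of 3 vault protein genes, none was called in the Chat line and Mvp, the major vault protein gene, was lower in the Snap25 line.

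Other RNAs moved with these results. Numbers called lower here stand against 14.3% of all genes in the Chat line and 12.7% in the Snap25 line. Of 9 long noncoding RNAs known as nuclear, 7 were lower in each line, with Malat1, a nuclear speckle RNA, at -3.41 and -4.38 on the log2 scale (edgeR adjusted p = 0.00506 and 0.00189). The summed level in each pulldown, as a percentage of the mean of its line's inputs, was 20.7%, 3.53% and 7.18% in TRAP_Chat and 3.39%, 1.70% and 11.2% in TRAP_Snap25 for all 11 nuclear RNAs listed, of which 2 were too low to be tested. For the 60 members it was 38.4%, 8.70% and 8.10% in TRAP_Chat and 15.9%, 8.92% and 13.1% in TRAP_Snap25. All 6 oligodendrocyte markers, all 6 astrocyte markers and all 6 microglia markers were lower in each line, and none of these markers was at 0 in all libraries. The oligodendrocyte markers summed to 1785 to 5035 CPM in TRAP_Chat, against 14926 to 19949 CPM in PreIP_Chat, and to 1391 to 4226 CPM in TRAP_Snap25, against 14507 to 18506 CPM in PreIP_Snap25. As a percentage of the input they stood at 28.5%, 10.1% and 14.4% in TRAP_Chat and 10.8%, 8.56% and 26.0% in TRAP_Snap25. The astrocyte markers summed to 186 to 369 CPM in TRAP_Chat, against 1355 to 1598 CPM in PreIP_Chat, and to 147 to 319 CPM in TRAP_Snap25, against 1323 to 1605 CPM in PreIP_Snap25. The microglia markers summed to 11.9 to 14.7 CPM in TRAP_Chat, against 75.3 to 83.8 CPM in PreIP_Chat, and to 4.24 to 11.9 CPM in TRAP_Snap25, against 57.5 to 98.6 CPM in PreIP_Snap25. The 2 mitochondrial ribosomal RNAs were lower in each line, with mt-Rnr2 at -3.85 and -6.80 (edgeR adjusted p = 0.00633 and 0.000542). Of 6 vessel and blood markers, 3 were lower in the Chat line and 4 in the Snap25 line. The part of glial RNA, of nuclear RNA and of mitochondrial RNA in the levels of the 60 members was not tested.

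**Figure D5:**
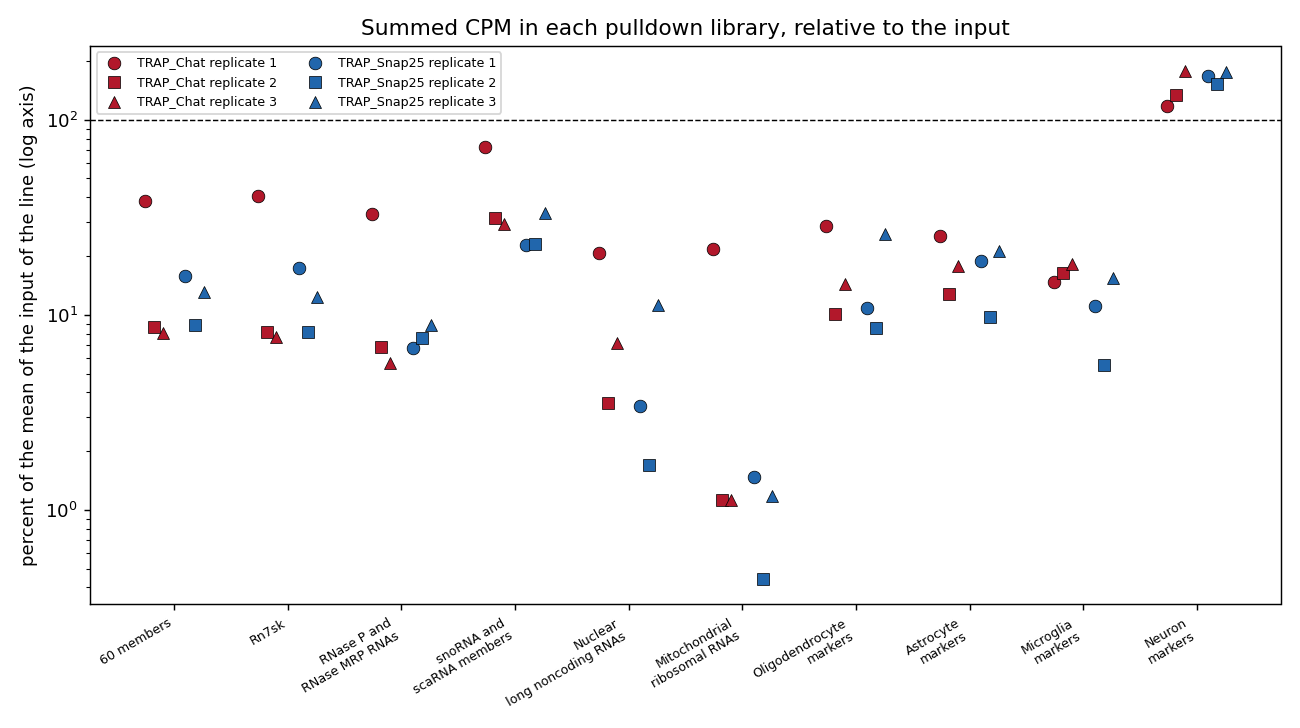
Summed CPM of 10 sets of RNAs in each pulldown library as a percentage of the mean of the same line's 3 inputs, on a log axis, with TRAP_Chat and TRAP_Snap25 in separate colours and one point per library. The 60 members lie between 8.10% and 38.4%, nuclear long noncoding RNAs between 1.70% and 20.7%, and neuron markers between 117% and 177%.

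Between the lines no member passed the threshold. In TRAP_Chat against TRAP_Snap25, 0 of the 51 were higher and 0 lower, while 3.97% and 2.77% of all genes were called. At an unadjusted p under 0.05, 1 member was lower and none higher, and DESeq2 and limma voom called 0. That member, Gm26397, had 0.247, 0.302 and 0.573 CPM in TRAP_Chat, against 1.47, 1.40 and 2.75 CPM in TRAP_Snap25. The libraries did not overlap, which held for 2 of the 51 members with TRAP_Chat the lower (9.47% of all genes) and for 0 with TRAP_Chat the higher (10.3% of all genes). Its log2 fold change was -2.25 ± 0.98 (edgeR adjusted p = 0.192). Rn7sk had 0.06 ± 0.52, Rpph1 0.90 ± 0.54 and Rmrp -0.42 ± 0.85 (edgeR adjusted p = 0.969, 0.358 and 0.841). The summed share of the 60 members differed by -0.28 on the log2 scale, from -1.03 without TRAP_Chat replicate 1 to 0.13 without TRAP_Chat replicate 2. The difference between the lines in TRAP over PreIP passed the threshold for no member: 0 were called in either direction, against 0.604% and 0.44% of all genes, 1 had an unadjusted p under 0.05 (Gm22388, edgeR adjusted p = 0.407), and DESeq2 and limma voom called 0. For Rn7sk this difference was 0.58 ± 0.73, for Rpph1 0.94 ± 0.76 and for Rmrp 0.39 ± 1.08 (edgeR adjusted p = 0.85, 0.724 and 0.948).

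Between the inputs, PreIP_Chat against PreIP_Snap25, 0 of the 51 members and 0.0% of all genes were called in either direction. At an unadjusted p under 0.05, 2 members were lower, Gm26397 and Gm24339, both highest in PreIP_Snap25 replicate 3, and DESeq2 and limma voom called 0. The libraries did not overlap for 2 of the 51 members with PreIP_Chat the lower, Snord104 and Snora23 (3.85% of all genes), and for 0 with PreIP_Chat the higher (4.19% of all genes). The summed share differed by -0.44 on the log2 scale.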

How the data were processed

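The authors deposited a table of raw read counts per Ensembl gene, and the submitters' processing notes name STAR and HTSeq. Per the labels' protocols, RNA of pulldown and input was purified with TRIzol, DNase and RNeasy Mini columns, made into libraries with a Nugen Ovation RNA-Seq V2 amplification and sequenced on a HiSeq2500. Column purification and amplification can affect how much of a short RNA is counted. Which build, annotation, strand option and tool versions were used is not given in the sources used here, and counting of reads that fit several genes could differ between copies. The table has 41736 lines, of which 824 exact repeats were dropped, leaving 40912 IDs. The values are whole numbers.

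The fit of the deposited counts was made in R 4.3.3 with edgeR 4.0.16 (filterByExpr with the groups, TMM scaling, glmQLFit over all 12 libraries with 1 mean per group, glmQLFTest, two-sided, Benjamini-Hochberg over 15905 genes). Other settings used limma voom 3.58.1, DESeq2 1.42.0, other scalings and filters, a replicate block, and each library left out. The pipeline was tested on simulated data. A planned permutation test of the summed share is not given, since these shares chose the members. Replicate libraries differed by 18.9 to 192 in chi-square per degree of freedom, so none was counted as a repeat of another. GENCODE M21 on GRCm38, in which all 60 IDs were found, gave sequences, lengths and neighbours, and no coordinates are printed since the build of the counts is unknown. Members named are the 10 with the highest mean share, those with a curated name, and the 5 largest changes of each comparison; other genes are up to 2 per list and direction, with Chat, Snap25, Malat1 and mt-Rnr2 as checks. Rpp25, Ccdc107, the host genes, Gm24151, Gm24146, Gm26397 in single libraries and Gm24339 were also named after their values were seen. The members and gene lists were chosen with earlier results of these data known.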

Additional observations from a re-analysis of the deposited data

Results flagged for a closer look

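The pulldown over input fold change of Rpp25, the message of a subunit shared by RNase P and RNase MRP, differed between the lines by an interaction term (-1.89 ± 0.38 on the log2 scale, Chat line minus Snap25 line, edgeR adjusted p = 0.0205), with TRAP means of 27.7 CPM in TRAP_Chat and 114 CPM in TRAP_Snap25. The same test called Chat, the gene whose sequences drive the tag of the Chat line (2.21 ± 0.41, edgeR adjusted p = 0.013), with TRAP means of 159 CPM in TRAP_Chat and 25.0 CPM in TRAP_Snap25.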

How the results depend on the processing

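Rn7sk, Rpph1, Rmrp and Gm23973 kept their direction and their call in both lines under all 21 other settings, with log2 fold changes from -3.66 to -1.94 and from -3.29 to -2.60 for Rn7sk, from -3.94 to -2.26 and from -3.87 to -3.22 for Rpph1, and from -6.08 to -4.34 and from -5.77 to -4.59 for Rmrp (Chat line first). Over named members, with no other gene counted, 990 values under another setting kept direction and side of the threshold, 47 passed it newly, 80 no longer passed it and 21 changed sign. With 1 library left out the number of members lower in the pulldown ran from 11 (without PreIP_Chat replicate 1) to 28 in the Chat line, with 13 without TRAP_Chat replicate 3, and from 14 (without PreIP_Snap25 replicate 3) to 32 in the Snap25 line, with 15 without TRAP_Snap25 replicate 2. No member was called higher with any library left out. DESeq2 called 24 and 30 members lower, limma voom 23 and 24, and edgeR with no filter on low counts 29 and 28. With no filter 1 member was higher in TRAP_Chat than PreIP_Chat (Gm24151), 1 was higher (Rpph1, 0.90, edgeR adjusted p = 0.0234) and 1 lower (Gm26397, -2.24) in TRAP_Chat than TRAP_Snap25, and 1 was lower in PreIP_Chat than PreIP_Snap25 (Gm26397, -2.95). Scaling by total counts moved the median of all genes to 0.17 in the Chat line and 0.38 in the Snap25 line. It changed the calls over all genes to 2642 higher and 1579 lower (2005 and 2268 with TMM) and to 3289 higher and 1391 lower (1541 and 2017 with TMM), and left 16 and 20 members lower and 0 higher. The summed share in the Snap25 line was -3.22 on the log2 scale when mitochondrial counts were left out of the totals. The summed share in TRAP_Chat against TRAP_Snap25 ran from -1.03 to 0.13 with a library left out.

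The sign changes of single members were all of values that were not called. By total counts these were Scarna9 (0.081) and Snora7a (0.013) in the Chat line, and Snora7a (0.36) and Snord91a (0.43) in the Snap25 line. In the Snap25 line Snora7a was 0.0027 and Snord91a 0.056 without the mitochondrial genome, and Snord91a 0.022 when only the groups compared were fitted. With libraries left out, Scarna9 ran from -3.02 to 0.35 and Snora7a from -0.71 to 0.33 in the Chat line. In the Snap25 line Rnu3a ran from -0.16 to 1.37, Scarna9 from -4.96 to 0.81, Snora7a from -1.04 to 0.34, Snord42b from -0.12 to 0.69 and Snord91a from -0.66 to 0.28. The cause of these changes was not tested, apart from fewer samples where a library was left out. Members near the filter rest on few counts per pulldown library, which limits what could be detected there.

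The replicate numbers were not taken as pairs. In the labels an input and a pulldown of one line and number share a suffix, but what it stands for is not stated. Deviations from the group means of libraries with the same number correlated at 0.0601, 0.102 and 0.127 in the Chat line, where each library correlated best with its own number, and at -0.0366, 0.167 and 0.147 in the Snap25 line, where this did not hold for each. A fit with the replicate block called 20 members lower in the Chat line (20 without it) and 17 in the Snap25 line (25 without it).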
